A study of Mus musculus with 16 samples.

Results

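Plasmacytoid dendritic cells (pDCs) are marked by a small set of genes, of which 8 were followed here in sorted lymph node macrophages: Tcf4, Spib, Siglech, Ccr9, Ly6d, Il3ra, Pacsin1 and Klk1. They were found by symbol among the 55421 Ensembl gene rows of the count table, and all 8 were present. The rule itself uses no measured value, but the genes were proposed with earlier results of these data known. All 8 also passed the filter on low counts that left 21085 genes for the tests, and 6 of the 8 had a mean normalized count over 100, the second condition for calling a gene differentially expressed. The 2 that did not were Ly6d and Klk1, which could therefore not be called.

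The libraries came from subcapsular sinus macrophages (SSMs) and medullary sinus macrophages (MSMs) of male C57BL/6 mice, 2 weeks after 500000 MOC2 cells, a mouse squamous cell carcinoma line, had been placed intradermally in the flank. Both subsets were sorted from the tumor-draining lymph node (tdLN) and from non-draining lymph nodes (ndLN) of the same animals, so that every group, ndLN included, came from tumor-bearing mice and no tumor-free mouse was in the comparisons. Each library was made from about 10000 cells of a pool of 2 mice, with 2 lymph nodes per pool for tdLN and 6 for ndLN, and each pool gave all 4 groups, which leaves 2 libraries per group. Per the study's methods, the tumor cells were placed near the inguinal node, and the ndLN were the contralateral inguinal, axillary and brachial nodes. The site of the nodes thus differed along with drainage, and these cannot be told apart in the comparisons of tdLN with ndLN. The sort took CD45+ CD3- B220- Ly6G- CD11b+ CD169+ cells and split them into CD11c- cells of low side scatter (SSMs) and CD11c+ cells of high side scatter (MSMs).

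pDCs are the dendritic cells that make large amounts of type I interferon when viral nucleic acid reaches Toll-like receptors in their endosomes. The E protein Tcf4 sets and keeps their identity, working with factors such as Spib, Irf8, Runx2 and Bcl11a, while Id2 opposes E proteins and favours conventional dendritic cells. In mice, pDCs carry B220 and Siglec-H on the surface, lack the high CD11c of conventional dendritic cells, and are usually studied as a population apart from the macrophages of the sinuses.

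The libraries held between 42972328 and 48130352 counts, and its 2 lanes, whose counts agreed within sampling noise, were summed into 1 sample. Levels below are normalized CPM (counts scaled to a common library size after normalization), and 3 counts, taken as the floor of detection, came to 0.0623 to 0.0698 CPM before normalization. Markers were checked against the labels in all libraries. Siglec1, which encodes the CD169 of the gate, was at 8.47 to 70.0 normalized CPM in SSMs and at 0.795 to 5.96 in MSMs. The 10 conventional dendritic cell markers, each above the floor in at least 1 library, summed to 4302 to 4987 normalized CPM in MSMs and to 1128 to 2422 in SSMs. Among them Xcr1 was at 630 to 752 in MSMs and 14.2 to 33.6 in SSMs, and Clec9a at 132 to 203 and 0.807 to 2.08. Ccr7 made up most of the sum in SSMs, at 601 to 1878, and was at 1644 to 2100 in MSMs. The 10 T cell markers summed to 693 to 1700 normalized CPM in SSMs and to 81.9 to 286 in MSMs. The subset labels therefore went together with large differences in markers of other cells, and the part of those cells in the results below was not tested. In bulk samples, fewer cells of a type and less RNA per cell cannot be told apart.

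Sequence of the annotated starts was read for the genes that separated the subsets, Ccr9 and Spib, and for Siglech, the surface marker by which mouse pDCs are named. The windows hold 250 bases before and 50 after the RefSeq start on GRCm38.p6. The window of Siglech is chr7:55767934-55768233 on the plus strand, that of Ccr9 chr9:123766961-123767260 on the plus strand and that of Spib chr7:44532022-44532321 on the minus strand. Capitals mark the letters CAGGTG or, on the other strand, CACCTG, an E-box that E proteins can bind, and GAGGAA or TTCCTC, a core of ETS family sites, the family of Spib.
Siglech: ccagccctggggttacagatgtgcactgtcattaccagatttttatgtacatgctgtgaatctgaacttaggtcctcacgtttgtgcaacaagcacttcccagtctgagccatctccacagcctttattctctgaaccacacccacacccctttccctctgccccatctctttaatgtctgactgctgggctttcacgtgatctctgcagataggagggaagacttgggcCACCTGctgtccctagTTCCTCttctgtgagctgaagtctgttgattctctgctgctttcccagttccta
Ccr9: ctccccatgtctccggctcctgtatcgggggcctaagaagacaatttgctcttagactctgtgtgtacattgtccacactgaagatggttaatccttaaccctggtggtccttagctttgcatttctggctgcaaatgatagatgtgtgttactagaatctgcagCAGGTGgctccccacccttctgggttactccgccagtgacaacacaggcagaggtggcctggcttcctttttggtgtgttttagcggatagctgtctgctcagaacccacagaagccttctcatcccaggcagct
Spib: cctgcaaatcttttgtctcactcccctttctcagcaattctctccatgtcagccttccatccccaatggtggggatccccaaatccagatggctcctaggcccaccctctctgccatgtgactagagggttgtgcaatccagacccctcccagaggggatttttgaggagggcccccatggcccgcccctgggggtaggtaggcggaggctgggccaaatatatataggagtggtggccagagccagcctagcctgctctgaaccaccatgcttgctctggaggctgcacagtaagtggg
The Siglech window held 1 CAGGTG-type E-box and 1 ETS core, the Ccr9 window held 1 E-box, and the Spib window held neither. Of the 32851 promoter windows of this length in the table, 20.2% held the CAGGTG-type E-box and 28.3% the ETS core on either strand. Windows were also on file for Pacsin1, Klk1 and Il3ra. The Klk1 window held 1 CAGGTG-type E-box, and those of Pacsin1 and Il3ra held neither motif. A further E-box, CAGCTG, present in 16.3% of all windows, was in none of the 6, and the marked letters did not overlap in any of them. No window was read for Ly6d or Tcf4. These matches describe the letters and not binding.

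Compared per transcript length, in TPM (transcript abundance scaled to a common total, here with 1 principal transcript per gene), Tcf4 had the highest median level over the 8 libraries, 14.3 TPM with a range of 10.6 to 16.7. Il3ra followed at 10.0 TPM (7.73 to 14.8), Spib at 9.13 (4.68 to 13.8), Ccr9 at 6.60 (1.12 to 16.6), Siglech at 4.54 (3.38 to 9.32), Ly6d at 4.39 (0.877 to 12.7), Pacsin1 at 1.94 (1.21 to 3.07) and Klk1 at 0.0228 (0 to 1.80). The ranges of every pair of neighbours in this order overlapped. Irf8, a factor that pDCs share with other dendritic cells and macrophages, had a median of 932 TPM, and Bst2, the surface protein that the pDC antibody PDCA-1 binds and that interferon induces in many cells, 289 TPM. All 8 pDC genes were thus well below these more widely expressed genes in every library, as the plot of levels per length shows.

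**Figure D1:**
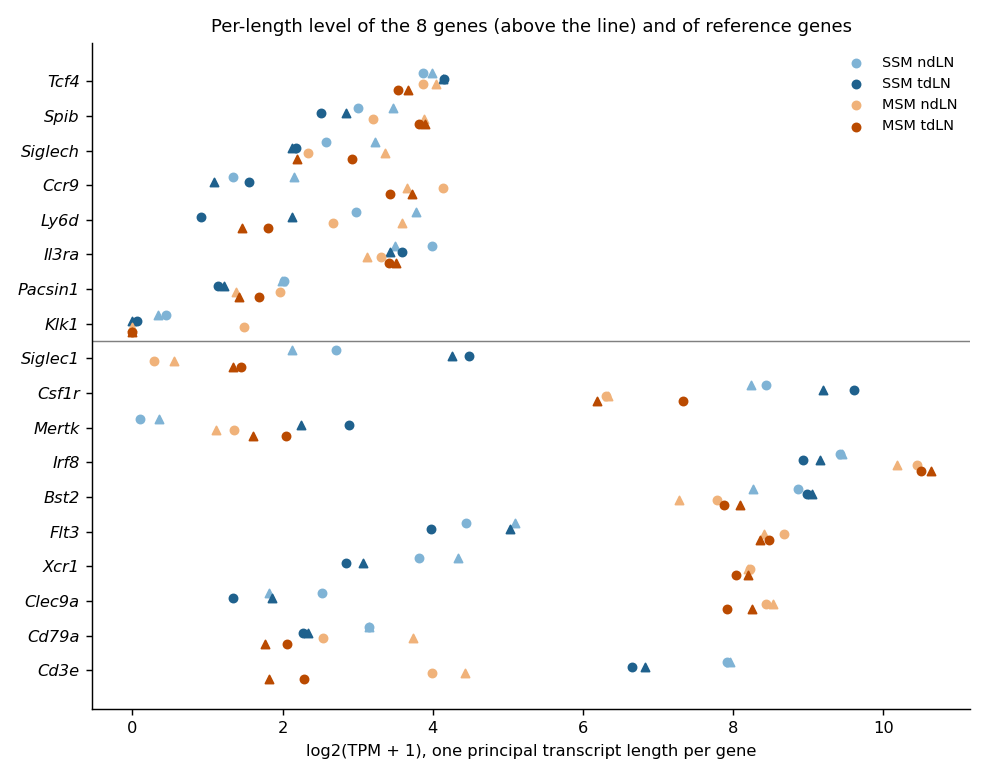
Level per transcript length, as log2(TPM + 1) on the horizontal axis, for the 8 pDC genes above the line and 10 reference genes below it, with 1 point per library (circle, pool 1; triangle, pool 2) coloured by group. The 8 genes stay at or below 16.7 TPM, whereas Irf8 lies between 486 and 1584 TPM, and Xcr1 and Clec9a separate MSMs from SSMs.

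Tcf4, the E protein named above, lies on chromosome 18. In SSMs it was at 50.1 normalized CPM in both ndLN libraries and at 73.7 and 72.5 in the tdLN libraries, whereas in MSMs it was at 66.7 and 72.0 in ndLN and at 48.9 and 57.9 in tdLN. Group means were 50.1 ± 0.0251, 73.1 ± 0.888, 69.3 ± 3.78 and 53.4 ± 6.36 normalized CPM (SD, n = 2 libraries each). The 2 subsets thus ran in opposite directions between ndLN and tdLN, in both pools and with no overlap between node groups within a subset. With 2 libraries per group such patterns arise easily, and their share over all genes was not counted. The log2 fold change between tdLN and ndLN was 0.54 ± 0.15 in SSMs (SE, adjusted p = 0.0661) and -0.38 ± 0.15 in MSMs (adjusted p = 0.377), neither of which passed the threshold of 0.01. The difference between these effects, 0.92 ± 0.21 on the log2 scale, had an adjusted p of 0.113 in edgeR and was not called, whereas the DESeq2 Wald test on the same libraries gave 0.90 with an adjusted p of 0.00329. Over all genes, the Wald test called 706 for this difference and edgeR 8. Between the subsets, SSMs against MSMs, the log2 fold change was -0.47 ± 0.15 in ndLN (adjusted p = 0.0626) and 0.46 ± 0.15 in tdLN (adjusted p = 0.0864), and over both nodes it was -0.0047 with a 95% interval from -0.47 to 0.46. The 10 sinus macrophage markers summed to 5938 and 9133 normalized CPM in SSMs from ndLN and to 15410 and 22500 in SSMs from tdLN. In MSMs of either node they summed to 4697 to 5330. Lyz2 made up most of each sum, at 5045 to 19310 in SSMs and 3998 to 4636 in MSMs. Single markers in MSMs ran both ways between ndLN and tdLN. Siglec1 was at 0.795 and 1.63 in ndLN and at 5.96 and 5.64 in tdLN, and Marco at 10.2 and 11.6 against 7.90 and 4.38. The median log2 fold change of the 10 between tdLN and ndLN was 1.54 in SSMs and 0.24 in MSMs. The part of these markers in the level of Tcf4 was not tested.

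Spib encodes the ETS factor Spi-B, which acts in pDCs and in B cells, and lies at chr7:44525993-44532071 on the minus strand (mm10). In SSMs it was at 8.39 and 11.04 normalized CPM in ndLN and at 6.73 and 8.83 in tdLN, and in MSMs at 13.0 and 20.6 in ndLN and at 19.6 and 22.2 in tdLN. Each of the 4 MSM libraries was above each of the 4 SSM libraries, as for 12.9% of all genes tested. Spib was lower in SSMs in tdLN, with a log2 fold change of -1.44 ± 0.22 (SE, adjusted p = 0.00399), and over both nodes, with -1.10 ± 0.19 (adjusted p = 0.00407). In ndLN alone the log2 fold change was -0.78 ± 0.22 and the adjusted p 0.0374, above the threshold. The call in tdLN was lost without any 1 of its 4 libraries (adjusted p up to 0.0622), and the call over both nodes without SSM ndLN 1, SSM tdLN 1 or 2, MSM ndLN 2, or MSM tdLN 1 or 2 (adjusted p up to 0.0212).

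B cells also use Spib, so B cell markers were set beside it. The 9 B cell markers summed to 115 to 172 normalized CPM in SSMs and to 34.6 to 74.9 in MSMs, a difference that Blk, a kinase of B cells and of innate-like T cells, carried at 72.3 to 142 normalized CPM in SSMs and 1.09 to 8.40 in MSMs. Other B cell markers ran both ways. In the direction of Spib, Ms4a1, a surface protein of B cells, was called lower in SSMs over both nodes (log2 fold change -1.50 ± 0.24, adjusted p = 0.00264), and Cd22, a B cell inhibitory receptor, in ndLN (-2.71 ± 0.49, adjusted p = 0.00575). In the opposite direction, Cd79b, of the B cell receptor, was called higher in SSMs over both nodes (1.23 ± 0.24, adjusted p = 0.00728). With 1 library left out, the calls for Ms4a1, Cd22 and Cd79b held in 4, 2 and 1 of the 8 fits. The median log2 fold change of the 9 markers over both nodes was -0.58, with 2 called higher and 1 lower in SSMs. Pax5, the defining B cell factor, was at 0.594 normalized CPM or less in every library. The conventional dendritic cell markers given above were higher in sum in MSMs too, and the part of either cell type in the difference was not tested. Between tdLN and ndLN, Spib gave log2 fold changes of -0.32 ± 0.23 in SSMs and 0.34 ± 0.21 in MSMs, with adjusted p-values of 0.467 and 0.573. Their difference, -0.66 ± 0.31, had an adjusted p of 0.471.

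Siglech, at chr7:55768178-55778925, encodes the endocytic receptor Siglec-H that signals through the adaptor Tyrobp. It was at 4.56 and 7.06 normalized CPM in SSMs from ndLN, 3.90 and 3.69 in SSMs from tdLN, 4.95 and 10.7 in MSMs from ndLN and 7.59 and 4.38 in MSMs from tdLN. Both SSM libraries from tdLN were below all other libraries, whereas the other groups overlapped one another. The share of all genes with such a pattern was not counted. In SSMs the log2 fold change between tdLN and ndLN was -0.59 ± 0.48 (SE, adjusted p = 0.513). The highest and the lowest MSM library came from ndLN and tdLN of the same pool. SSMs against MSMs gave a log2 fold change of -0.54 with a 95% interval from -1.26 to 0.18 over both nodes (adjusted p = 0.241). tdLN against ndLN gave -0.47 with an interval from -1.20 to 0.26 over both subsets (adjusted p = 0.429). Both intervals thus include 0 and reach past -1 on the log2 scale.

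Ccr9, the receptor for the chemokine Ccl25 that guides pDCs and T cells to the gut and thymus, showed the largest difference among the 8 genes. It lies at chr9:123678439-123784330, with a gene model that reaches upstream of the RefSeq start printed above. In SSMs it was at 3.42 and 7.06 normalized CPM in ndLN and at 5.16 and 2.98 in tdLN, against 49.1 and 32.7 in MSMs from ndLN and 27.2 and 36.7 in MSMs from tdLN. All MSM libraries were far above all SSM libraries, and node groups within a subset overlapped. SSMs were lower than MSMs by a log2 fold change of -2.98 ± 0.41 in ndLN (SE, adjusted p = 0.00161), -2.97 ± 0.43 in tdLN (adjusted p = 0.00288) and -2.97 ± 0.29 over both nodes (adjusted p = 0.000215). Between nodes the log2 fold change was -0.35 ± 0.50 in SSMs and -0.35 ± 0.35 in MSMs (adjusted p = 0.744 and 0.743).

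The call for Ccr9 over both nodes held with each of the 8 libraries left out in turn (adjusted p up to 0.00161), but the call in ndLN was lost without SSM ndLN 1 (0.0161) or MSM ndLN 1 (0.0199), and that in tdLN without any 1 of its libraries (up to 0.0475). Of the exonic length of Ccr9, 21.5% overlaps other annotated genes, and the strand setting of the counting is not given in the sources used here. T cells express Ccr9 too. Cd3e, of the T cell receptor complex, was called higher in SSMs in both nodes, at 75.0 to 151 normalized CPM against 2.14 to 16.3 in MSMs. The part of T cells in the level of Ccr9 was not tested. Of the 10 conventional dendritic cell markers, 6 were called lower in SSMs in ndLN and 8 in tdLN, with 0 called higher. Not all moved this way: in ndLN, Itgae was at 148 and 174 normalized CPM in SSMs and at 146 and 164 in MSMs. Ccr7 in ndLN and Clec10a in tdLN overlapped between the subsets as well. The part of these cells was not tested. Ccl25, the ligand, was at 0.881 to 4.25 normalized CPM in all libraries.

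Ly6d, at chr15:74762056-74763620 on the minus strand, encodes a surface protein of lymphoid progenitors, B cells and keratinocytes, and marks the lymphoid precursors of pDCs. It was at 2.19 and 3.72 normalized CPM in SSMs from ndLN and at 0.336 and 1.28 in SSMs from tdLN. In MSMs it was at 2.28 and 4.44 in ndLN and at 0.994 and 0.749 in tdLN. Each of the 4 ndLN libraries was above each of the 4 tdLN libraries, as for 2.19% of genes tested, while the subsets overlapped. The log2 fold change between tdLN and ndLN was -1.88 ± 0.53 in SSMs (SE, adjusted p = 0.0724), -1.95 ± 0.53 in MSMs (adjusted p = 0.209) and -1.91 ± 0.36 over both subsets (adjusted p = 0.0408). None passed 0.01, and the mean normalized count of 45.3 was under the limit of 100. Without each library in turn the value over both subsets stayed between -2.16 and -1.65.

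Markers of other cells that carry Ly6d or lie near the nodes were set beside it. The sum of all 9 B cell markers was 34.6 to 172 normalized CPM in ndLN and 37.1 to 119 in tdLN, and single markers ran both ways: Cd79a, of the B cell receptor, was at 3.97 to 9.69 in ndLN and at 2.03 to 3.00 in tdLN, whereas Cd79b, its partner, was at 10.9 and 13.8 in SSMs from ndLN and at 22.8 and 21.8 in SSMs from tdLN. The median log2 fold change of the 9 markers between the nodes was 0.24 over both subsets, with 0 called by edgeR and 5 at an unadjusted p under 0.05. The salivary gland gene Bpifa2 was at 24.7 to 61.6 normalized CPM in ndLN and at 0.0485 or less in tdLN, and the 10 salivary gland markers summed to 35.5 to 76.9 and 0.218 to 0.780. The 8 keratinocyte markers summed to 2.45 to 11.3 normalized CPM in ndLN and to 1.62 to 6.88 in tdLN, with Krt5, Krt15 and Dsg3 at 3 counts or fewer in every library. The part of these cells in the level of Ly6d was not tested.

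Il3ra, the alpha chain of the interleukin-3 receptor at chr14:14346275-14356011, was the most even of the 8 genes after Tcf4. It was at 14.7 and 9.36 normalized CPM in SSMs from ndLN, 13.1 and 11.5 in SSMs from tdLN, 11.7 and 9.65 in MSMs from ndLN and 12.1 and 13.9 in MSMs from tdLN. The groups overlapped, except that both MSM libraries from tdLN were above both from ndLN, a pattern whose share over all genes was not counted. In MSMs the log2 fold change between tdLN and ndLN was 0.30 ± 0.26 (SE, adjusted p = 0.701). The log2 fold change was 0.031 for SSMs against MSMs over both nodes, with a 95% interval from -0.40 to 0.46, and 0.18 for tdLN against ndLN over both subsets, with an interval from -0.25 to 0.60. Basophils and mast cells also carry this receptor. Their 10 markers summed to 262 to 2030 normalized CPM in SSMs and to 270 to 621 in MSMs. In MSMs nearly all of this sum was Kit, at 269 to 614, while Cpa3 was at 0.330 or less. In SSMs Kit was at 61.6 to 481 and Cpa3 at 36.1 to 562. The part of these cells in the level of Il3ra was not tested.

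The shared beta chain Csf2rb, by contrast, was at 238 and 182 normalized CPM in SSMs from ndLN and at 471 and 420 in SSMs from tdLN, with 605 and 662 in MSMs from ndLN and 501 and 505 in MSMs from tdLN. It was lower in SSMs than in MSMs in ndLN (log2 fold change -1.60 ± 0.15, adjusted p = 0.000292) and higher in tdLN than in ndLN in SSMs (1.09 ± 0.15, adjusted p = 0.00573), the latter lost without any 1 of the 8 libraries (adjusted p up to 0.103). Csf2rb2, the beta chain particular to interleukin-3 in mice, gave log2 fold changes of -1.02 ± 0.21 (adjusted p = 0.0113) and 1.16 ± 0.21 (adjusted p = 0.0160) in these comparisons and was not called. Il3 itself was at 0.252 normalized CPM or less. Csf2ra, the alpha chain that pairs with Csf2rb for the growth factor GM-CSF, was lower in SSMs in ndLN (-1.85 ± 0.15, adjusted p = 0.000133) and higher in tdLN than in ndLN in SSMs (1.30 ± 0.14, adjusted p = 0.00276), the latter lost in 5 of the 8 fits with 1 library left out. Of the 10 partner genes of the 8, 2 were called higher and 3 lower in SSMs in ndLN, 1 higher in tdLN, and 4 higher in tdLN than in ndLN in SSMs. Of all genes, 6.01% were called higher and 6.06% lower in SSMs in ndLN, and 5.16% higher in tdLN. Between the nodes in SSMs, 1.98% were called higher in tdLN.

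Pacsin1 encodes an adaptor of endocytosis that is made in neurons and pDCs and takes part in the interferon response to Toll-like receptor 9, at chr17:27655509-27711482. It was at 5.98 and 5.38 normalized CPM in SSMs from ndLN and at 2.85 and 3.12 in SSMs from tdLN, so that the node groups did not overlap in SSMs. In MSMs it was at 7.54 and 3.97 in ndLN and at 5.45 and 4.38 in tdLN, where they did. The log2 fold change between tdLN and ndLN was -0.92 ± 0.35 in SSMs (SE, adjusted p = 0.164) and -0.20 ± 0.33 in MSMs (adjusted p = 0.880). SSMs against MSMs gave 0.0093 ± 0.32 in ndLN and -0.72 ± 0.37 in tdLN, with adjusted p-values of 1 and 0.260.

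Its relative Pacsin3, which is the muscle form, was higher in SSMs in ndLN by a log2 fold change of 3.96 ± 0.42 (adjusted p = 0.000505), with 11.2 and 14.9 normalized CPM in SSMs against 0.487 and 1.18 in MSMs. This call was lost without either MSM ndLN library (adjusted p up to 0.0109). Pacsin2, the widely expressed form, gave -0.27 ± 0.19 in ndLN and 0.30 ± 0.18 in tdLN (adjusted p = 0.347 and 0.357).

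Klk1, tissue kallikrein, is a serine protease of glands, kidney and pancreas that also appears in mouse pDC signatures, and lies at chr7:44225360-44229618. Its counts were 8 and 5 in SSMs from ndLN, 1 and 0 in SSMs from tdLN, 38 and 0 in MSMs from ndLN and 0 and 0 in MSMs from tdLN. Only 3 of the 8 libraries, all from ndLN, were thus above 3 counts, and most of the counts came from 1 MSM library whose counterpart in the other pool had none. With 3 counts or fewer in most libraries, no fold change of Klk1 is given as a result, its fitted values being listed only among the alternative fits, and a count of 0 allows up to about 0.07 CPM. Of the 50-base windows of Klk1 transcripts, 24% also occur in other genes, first of all its Klk1b paralogs, and 20 of the 23 paralogs had 3 counts or fewer in every library. The salivary gland markers, given above, were also higher in sum in all ndLN than in all tdLN libraries, and their part in the counts of Klk1 was not tested.

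**Figure D2:**
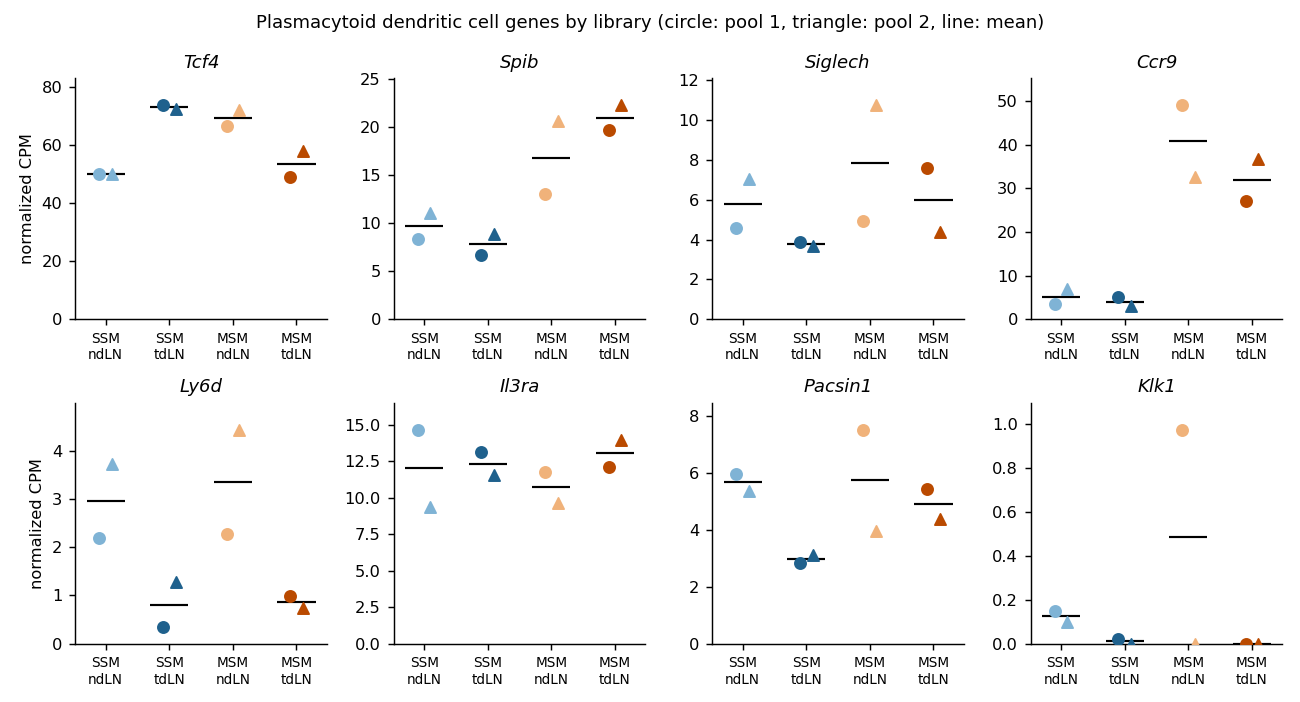
Normalized CPM (vertical axes, each from 0) of the 8 pDC genes in the 4 groups, with 1 point per library (circle, pool 1; triangle, pool 2) and the group mean as a line. Ccr9 and Spib are higher in all MSM than in all SSM libraries, Ly6d is higher in all ndLN than in all tdLN libraries, and Tcf4 runs in opposite directions in the 2 subsets.

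Counted over the 8 genes, 1 was called in SSMs against MSMs in ndLN (Ccr9, higher in MSMs), where 6.06% of all genes were called higher in MSMs and 6.01% higher in SSMs. In tdLN 2 were called (Ccr9 and Spib, both higher in MSMs), beside 3.53% of all genes higher in MSMs and 5.16% higher in SSMs. Over both nodes the same 2 were called, with 6.04% of genes higher in MSMs and 6.45% higher in SSMs. The median log2 fold change of the 7 genes other than Klk1 was -0.44 in ndLN, -0.66 in tdLN and -0.31 over both nodes, against 0.091, 0.024 and 0.069 over all genes tested. With a Holm adjustment in place of Benjamini-Hochberg, 0 of the 8 were called in any of these comparisons (adjusted p of 0.156 for Ccr9 over both nodes), with unadjusted p-values under 0.05 for 3, 3 and 2 of them, and DESeq2's Wald test with Benjamini-Hochberg called 1, 2 and 2.

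Between tdLN and ndLN edgeR called 0 of the 8 in SSMs, where 1.98% of all genes were higher in tdLN and 1.05% higher in ndLN, although 3 had an unadjusted p under 0.05 (Tcf4, Ly6d and Pacsin1). In MSMs it also called 0, beside 0.00474% and 0.0190% of all genes, with 2 at an unadjusted p under 0.05. Over both subsets it called 0, beside 0.0996% higher in tdLN and 0.123% higher in ndLN, with 1 at an unadjusted p under 0.05. The interaction of subset and node gave 0 calls, beside 0.0379% of all genes, with 1 at an unadjusted p under 0.05. DESeq2's Wald test called 0 of the 8 in the first 3 of these comparisons and 1, Tcf4, for the interaction. With every lane entered as a sample of its own, DESeq2's likelihood ratio test called 3, 1, 1 and 2. The median log2 fold change of the 7 genes other than Klk1 between the nodes was -0.35 in SSMs and -0.35 in MSMs, against -0.035 and 0.0093 over all genes tested.

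**Figure D3:**
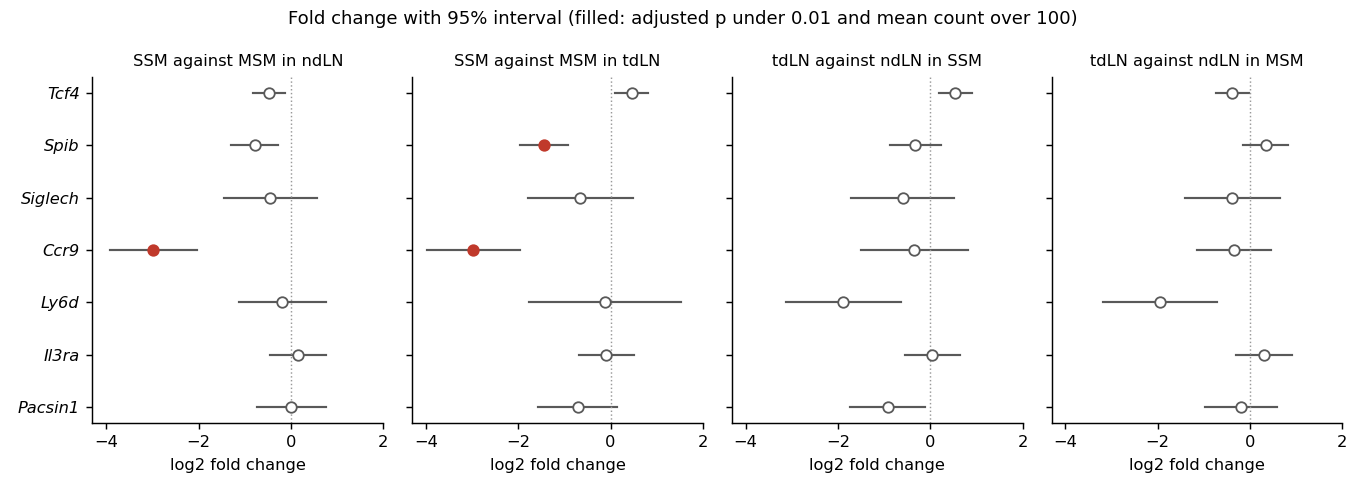
Log2 fold change (horizontal axes) with its 95% interval for 7 of the pDC genes, Klk1 left out, in 4 comparisons, with filled points for called genes. Ccr9 is called in both nodes near -3 and Spib in tdLN at -1.44, and the intervals of Siglech, Il3ra and Ly6d include 0 in both comparisons of subsets.

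The other transcription factors of pDCs split between the subsets. Of the 9 in the list, 3 were lower in SSMs in ndLN and 2 higher, and 4 were lower in tdLN and 1 higher. Of all genes tested, 6.06% were called lower and 6.01% higher in SSMs in ndLN, and 3.53% and 5.16% in tdLN. Irf8, which pDCs share with cross-presenting dendritic cells, was lower in SSMs in both nodes, at 712 to 834 normalized CPM against 1783 to 2599 in MSMs (log2 fold change -1.32 ± 0.16 in ndLN, adjusted p = 0.000850, and -1.64 ± 0.16 in tdLN, adjusted p = 0.000498). Bcl11a, a factor that activates Tcf4 in pDC development, was lower in SSMs by -2.74 ± 0.23 in ndLN (adjusted p = 0.000184) and was at 2.32 to 12.2 normalized CPM in SSMs and 14.1 to 36.2 in MSMs. Cbfa2t3, a cofactor of Tcf4, was lower by -2.25 ± 0.19 and -1.91 ± 0.18 (adjusted p = 0.000170 and 0.000476). Runx2, which promotes the exit of pDCs from bone marrow, was higher in SSMs in ndLN by 2.12 ± 0.36 (adjusted p = 0.00467), a call lost in 5 of the 8 fits with 1 library left out. Zeb2, which favours pDCs by repressing Id2, was higher in SSMs by 1.90 ± 0.18 in tdLN (adjusted p = 0.000472). It was also called higher in SSMs in ndLN, which held in 6 of the 8 fits with 1 library left out. Id2, the antagonist, was lower in SSMs in tdLN (-1.37 ± 0.19, adjusted p = 0.00229) and gave -0.29 ± 0.18 in ndLN (adjusted p = 0.302).

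Factors that favour pDCs were therefore found on both sides, with Irf8, Bcl11a, Cbfa2t3 and Spib higher in MSMs and Zeb2 and, in ndLN, Runx2 higher in SSMs. With 1 library left out, the factors called lower in SSMs numbered 2 to 3 in ndLN and 0 to 4 in tdLN, those called higher 0 to 2 and 0 to 1. In SSMs, Bcl11a and Zeb2 were higher in tdLN than in ndLN, by 1.85 ± 0.24 (adjusted p = 0.00515) and 1.31 ± 0.18 (adjusted p = 0.00541). Of the calls between the subsets given above, that for Irf8 was lost in 1 of the 8 fits in ndLN and in 2 in tdLN, and in tdLN those for Cbfa2t3, Zeb2 and Id2 in 3, 2 and 4. Of the calls between the nodes, the first was lost without any 1 of the 8 libraries and the second in 6 of the 8 cases. Of the relatives of Spib in the ETS family, Spi1, which encodes PU.1, was lower in SSMs in ndLN (-2.25 ± 0.14, adjusted p = 4.59e-05) and higher in tdLN than in ndLN in SSMs (1.32 ± 0.13, adjusted p = 0.00231), and Spic, a factor of iron-handling macrophages, was higher in SSMs in tdLN (1.56 ± 0.15, adjusted p = 0.000525) and higher in tdLN than in ndLN in SSMs (1.93 ± 0.15, adjusted p = 0.00138) and over both subsets (1.82 ± 0.13, adjusted p = 0.00154). With 1 library left out, the Spi1 call between nodes was lost in 3 of 8 fits, and these 3 Spic calls in 3, 3 and 5 of 8. Spic was also called higher in SSMs in ndLN, which held in 7 of 8 fits. Over both nodes it was called too (1.44 ± 0.13, adjusted p = 0.000124), which held in 8 of 8.

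Of the 12 surface and pDC-restricted genes, 2 were higher and 1 lower in SSMs in ndLN, and 4 higher and 2 lower in tdLN. The shares over all genes were 6.01% higher and 6.06% lower in ndLN, and 5.16% and 3.53% in tdLN. Flt3, the receptor that all dendritic cells need, was lower in SSMs by -4.29 ± 0.34 in ndLN and -4.05 ± 0.34 in tdLN (adjusted p = 0.000131 and 0.000265), at 27.9 to 59.3 normalized CPM against 672 to 852 in MSMs. Ly6c2, a surface antigen of monocytes, pDCs and memory T cells, was higher in SSMs by 3.28 ± 0.43 and 4.66 ± 0.45 (adjusted p = 0.00138 and 0.000498), each call being lost without either MSM library of that node. The T cell, sinus macrophage and neutrophil markers, among others, were each higher in sum in all SSM than in all MSM libraries. Within SSMs, Ly6c2 was at 582 and 172 normalized CPM in ndLN and at 1023 and 1064 in tdLN. The T cell sum was 1519 and 1700 in ndLN and 693 and 749 in tdLN, and the neutrophil sum 87.0 and 268 against 687 and 342. The sinus macrophage sums are given above. The part of any of these cells in Ly6c2 was not tested. Bst2 was at 65.7 to 214 normalized CPM and gave 0.61 ± 0.26 in ndLN and 0.90 ± 0.25 in tdLN (adjusted p = 0.133 and 0.0515). With 1 library left out, 1 to 2 genes were higher and 1 was lower in ndLN, and 1 to 4 were higher and 1 to 2 lower in tdLN.

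Of the 9 genes of endosomal nucleic acid sensing, 1 was higher and 2 were lower in SSMs in ndLN, and 1 was higher in tdLN. Over all genes, 6.01% were called higher and 6.06% lower in ndLN, and 5.16% higher in tdLN. In a list this short, a count of 1 is not read as a result about the list. Tlr7, the receptor for single-stranded RNA, was higher in SSMs by 1.99 ± 0.38 in ndLN and 3.51 ± 0.38 in tdLN (adjusted p = 0.00770 and 0.000811), at 19.3 to 69.2 normalized CPM against 4.23 to 8.56 in MSMs, and the first call was lost in 7 of the 8 fits with 1 library left out and the second without any 1 of the 4 tdLN libraries (adjusted p up to 0.0182). Tlr9, the receptor for unmethylated DNA, was at 0.111 to 2.16 normalized CPM in all libraries and gave 0.23 ± 1.06 and 0.57 ± 0.76 (adjusted p = 0.913 and 0.699). Unc93b1, which carries these receptors to endosomes, was lower in SSMs in ndLN (-2.07 ± 0.14, adjusted p = 7.70e-05) and higher in tdLN than in ndLN in SSMs (1.71 ± 0.14, adjusted p = 0.00158), the latter lost in 3 of the 8 fits. Irak1, a kinase of the pathway, was lower in SSMs in ndLN by -0.93 ± 0.15 (adjusted p = 0.00364), a call lost in 7 of the 8 fits. In SSMs, 3 genes of the list were higher in tdLN than in ndLN, the adaptor Myd88 by 1.36 ± 0.15 (adjusted p = 0.00294) and the kinase Irak4 by 1.06 ± 0.15 (adjusted p = 0.00672) beside Unc93b1, with 0 to 2 called when 1 library was left out. Of all genes, 1.98% were called higher in tdLN in SSMs.

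Type I interferon genes, the product by which pDCs are known, were hardly detected. Of 15 such genes, 11 had 3 counts or fewer in every library, and the sum over all 15 was 0.128 to 1.56 normalized CPM. Ifnb1 was at 0.135 to 1.56 normalized CPM in SSMs and at 0 to 0.308 in MSMs. Only 3 of the 15 passed the filter on low counts, and a difference between the groups in the other 12 was not detectable at this depth.

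Over both nodes, 3 transcription factors were lower and 1 was higher in SSMs, 1 surface gene was lower and 3 were higher, and 1 sensing gene went each way. Of all genes, 6.04% were called lower and 6.45% higher in SSMs. Bcl11a gave -2.08 ± 0.25, Cbfa2t3 -2.08 ± 0.15 and Irf8 -1.48 ± 0.15 on the log2 scale, and Zeb2 gave 1.59 ± 0.18. Flt3 gave -4.18 ± 0.25, Ly6c2 3.98 ± 0.41 and Tlr7 2.76 ± 0.39. These calls, with adjusted p-values in edgeR from 2.2e-05 to 0.0013, all held with each library left out in turn. Irak1, at -0.72 ± 0.14 (adjusted p = 0.00699), was lost in 7 of the 8 fits.

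In MSMs, edgeR called 0 genes of these 3 lists between tdLN and ndLN, with 3, 2 and 3 transcription factors, surface genes and sensing genes at an unadjusted p under 0.05, and DESeq2's Wald test called 0, 1 and 1. For the interaction edgeR also called 0, with 4, 5 and 3 at an unadjusted p under 0.05, and the Wald test called 1, 2 and 1. Among the surface genes 0 were called between tdLN and ndLN in SSMs, with 6 at an unadjusted p under 0.05 and 3 called by the Wald test. Over all genes, edgeR called 639 of 21085 between the nodes in SSMs, 5 in MSMs and 8 for the interaction. The Wald test called 1973, 503 and 706, and the counts of these lists are to be read against those.

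The 8 genes did not follow one another across the libraries. As a description over 8 libraries that share pools and subsets, Pearson's r of log2(CPM + 1) was 0.784 between Ccr9 and Spib and 0.732 between Siglech and Ly6d, but -0.231 between Tcf4 and Siglech, -0.538 between Tcf4 and Spib and 0.337 between Siglech and Ccr9. CPM here, and for the closest genes below, was scaled by library total alone, without the TMM factors. Among the 9996 genes with a mean normalized count over 100, those closest to Ccr9 were Afg3l1, Eefsec, Prkar2a, Acss1 and Proser2 (r of 0.986 to 0.994), and those closest to Spib were Nek4, Fam173b, Rnf122, Dpy30 and Ccdc191 (0.959 to 0.982). Tcf4 was closest to Cln3, Cd33, Pcgf3, Ap4s1 and Cask (0.893 to 0.950), and Siglech to E130308A19Rik, Hltf, Coq6, Gtf3c5 and Eogt (0.908 to 0.949). Ly6d was closest to Tmem201, Rnf146, Wdr75, Zfp746 and Nolc1 (0.955 to 0.977), and Pacsin1 to Gnl3l, Kptn, Ddx49, Dohh and BC052040 (0.918 to 0.941). Il3ra was closest to Aldh4a1, Snrpc, Atxn7l3, Btbd7 and Zswim7 (0.893 to 0.921). For Klk1, whose values rest on 1 library, the closest were Ighv7-3, Iglv2, Iglc2, Lig3 and Ighm (0.895 to 0.961). None of the genes closest to a member came from the pDC lists above.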

How the data were processed

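RNA from sorted cells was made into SMART-Seq v4 libraries and sequenced on lanes 3 and 4. Per the submitters' processing notes and the study's methods, the authors used bcl2fastq 2.20.0.422, Trimmomatic 0.36 and STAR 2.5.3a with mm10. The deposited table holds raw, unnormalized read counts by gene for 16 samples, and the strand and counting mode are not given in the sources used here. Every sample column was used, and 0 were left out.

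Lanes were summed into 8 libraries after a check, in which chi-square over its degrees of freedom ranged from 0.955 to 1.02 for lanes of 1 library and from 29.3 to 53.1 for libraries of 1 group. Rows for 2 added sequences (6 counts in all) were left out. Symbols and coordinates were taken from GENCODE mouse release 21 (55240 of 55421 IDs matched), and promoter sequence from RefSeq, GRCm38.p6, where 6 of the 8 genes were looked up. Genes with at least 10 counts in total and detection in at least 2 samples were kept. Counts were normalized by TMM (factors 0.902 to 1.15) in edgeR 4.0.16 under R 4.3.3 and fitted with group and pool, or with subset, node and pool for effects over both nodes or subsets. Contrasts were tested by the quasi-likelihood test over all 21085 genes with Benjamini-Hochberg adjustment. A gene was called at an adjusted p under 0.01 with a mean normalized count, scaled to 1 lane, over 100. SEs and 95% intervals come from the same fits. Floors cover counting error only. The script was tested on simulated data.

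Pool numbers come from the labels, except that the label of the SSM tdLN library taken as pool 1 carries no pool number. The study's methods tie a pool to the same 2 mice in all 4 groups. The deviations of same-numbered libraries from their group means correlated by -0.150 to 0.165 over 10000 genes. The study's own sample list counts 4 pools, with the lanes of a library as separate pools, and its methods state a likelihood ratio test of DESeq2 with a Holm adjustment. These, DESeq2 1.42.0's Wald test, other scalings, filters and fits, each lane alone and each library left out were alternatives. TPM used 1 principal transcript length per gene. Python 3.11, numpy 2.4.6, pandas 2.3.3 and matplotlib 3.10.9 were used for summaries.

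The 8 genes and all lists were chosen with earlier results of these data known, and no list was tested as a set. All 8 genes were named, with up to 3 called genes of largest fold per pDC or partner list and comparison, 7 fixed genes (Id2, Irf8, Bst2, Csf2rb, Csf2rb2, Tlr7, Tlr9) and the 5 genes closest to each member. Marker genes of other cells, Pax5, Pacsin2, Ccl25, Il3 and Ifnb1 were named after their values were seen. Some listed genes are counted in their lists but not reported here by name.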

Additional observations from a re-analysis of the deposited data

Results flagged for a closer look

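For 2 of the 8 genes, the values in tdLN and ndLN differed one way in both pools of SSMs and the other way in both pools of MSMs. How many of all genes show this pattern was not counted, so the 2 genes cannot be said to stand out by it. Tcf4 was 0.557 and 0.531 higher on the log2 scale in tdLN than in ndLN in SSMs of pools 1 and 2, and -0.448 and -0.316 in MSMs. The difference between the 2 effects was 0.92 with an adjusted p of 0.113 in edgeR, above the threshold, and stayed between 0.82 and 1.03 with 1 library left out. Spib gave -0.319 and -0.323 in SSMs and 0.595 and 0.111 in MSMs, and the difference of -0.66 had an adjusted p of 0.471. Groups of 2 libraries are too small for a check of single outlying libraries.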

How the results depend on the processing

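Without the replicate block for pool, the numbers of the 8 genes called were 1, 2, 0, 0, 0, 2 and 0, in this order: the subsets in ndLN, the subsets in tdLN, the nodes in SSMs, the nodes in MSMs, the interaction, and the comparisons over both nodes and over both subsets, the same as with it. In SSMs against MSMs in ndLN (1 called), the count was 3 with every lane as a sample in edgeR and in DESeq2's likelihood ratio test, 0 with only the groups compared, 0 with Holm's adjustment, 2 at an adjusted p under 0.05 and 0 to 1 with 1 library left out. In tdLN (2 called) it was 4 by the likelihood ratio test, 0 with Holm's adjustment and 0 to 2 with 1 library left out, and over both nodes (2 called) 0 with Holm's adjustment and 1 to 2. Between tdLN and ndLN (0 called) it was 2 in SSMs and 1 in MSMs with lanes as samples in edgeR, and 3 in SSMs, 1 in MSMs and 1 over both subsets by the likelihood ratio test. For the interaction (0 called) it was 1 by the Wald test and 2 with lanes as samples by either tool. Entering lanes as samples counts each library 2 times. Signs turned only where a value was not called. With lane 3 alone Pacsin1 gave -0.02056 between the subsets in ndLN, and Siglech gave 0.1343 and Ly6d -0.2703 for the interaction. With lane 4 alone Ly6d gave 0.09145 and Klk1 -0.05918 between the subsets in tdLN, Il3ra -0.04373 for tdLN against ndLN in SSMs, Ccr9 -0.1288 for the interaction and Tcf4 0.01564 for SSMs against MSMs over both nodes. By the Wald test, the likelihood ratio test and DESeq2's size factors in that order, Il3ra gave -0.002898, -0.01041 and -0.01154 in SSMs between nodes, Ccr9 -0.0275, -0.03741 and -0.02364 for the interaction, Tcf4 0.02678, 0.02911 and 0.02642 over both nodes, and Spib -0.02705, -0.02068 and -0.01158 over both subsets. Ly6d gave -0.2477 (Wald), -0.1751 (likelihood ratio) and -0.2231 (legacy quasi-likelihood) for the interaction, Klk1 0.2978 (Wald) and 0.5608 (legacy) over both nodes, and Ccr9 -0.00189 for the interaction with edgeR's filterByExpr. The cause was not tested. With 1 library left out, values in SSMs against MSMs in ndLN ranged from -0.9209 to 0.2586 for Siglech, -0.3431 to 0.4478 for Pacsin1, -2.694 to 5.167 for Klk1 and -0.146 to 0.4188 for Il3ra. In tdLN they ranged from -1.311 to 0.09859 for Siglech, -0.99 to 0.5071 for Ly6d, -0.02618 to 3.195 for Klk1 and -0.3694 to 0.2096 for Il3ra. Between nodes they ranged in SSMs from -0.8976 to 0.3421 for Ccr9 and -0.2087 to 0.3561 for Il3ra, and in MSMs from -1.098 to 0.3111 for Siglech, -0.7898 to 0.1129 for Ccr9, -0.5543 to 0.2366 for Pacsin1 and -0.001379 to 0.5778 for Il3ra. For the interaction they ranged from -0.9027 to 0.5148 for Siglech, -0.5762 to 0.6632 for Ccr9, -0.8039 to 0.6775 for Ly6d, -2.811 to 5.135 for Klk1 and -0.5216 to 0.0614 for Il3ra. Over both nodes they ranged from -0.1691 to 0.1422 for Tcf4, -2.471 to 3.968 for Klk1 and -0.1067 to 0.1715 for Il3ra, and over both subsets from -0.06662 to 0.2445 for Tcf4 and -0.1202 to 0.1259 for Spib. Of the single-gene values under all alternatives, 1079 kept direction and side of the threshold, 73 changed sign, 21 newly passed the threshold and 22 no longer did. Over all genes, the calls in the order given first numbered 2545, 1833, 639, 5, 8, 2635 and 47, with 6212, 5438, 4744, 2710, 2882, 6000 and 3592 by the likelihood ratio test on lanes, 5829, 4898, 4212, 1789, 2079, 5522 and 2752 by edgeR on lanes, and 207, 108, 7, 0, 1, 239 and 4 with Holm's adjustment. At an adjusted p under 0.05 they numbered 3886, 3023, 1832, 93, 215, 4079 and 457. The Wald test gave 3030 in tdLN, 1973 in SSMs, 503 in MSMs, 706 for the interaction and 956 over both subsets, the fit with only the groups compared gave 877 in ndLN and 0 between nodes in either subset, and leaving out the block gave 9 in MSMs and 110 over both subsets.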
